A study of Mus musculus with 8 samples.

Results

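The genes described here are 32 enzymes, transporters and cofactors that make, export and break down the ceramides and related lipids of the epidermal permeability barrier, with the enzyme of cholesterol sulfate. They are a list of names whose rule uses no measured value, but the list and the classes below were chosen with earlier results of these data known. All 32 were found among the 55487 Ensembl genes of the deposited tables. Expression was measured by bulk RNA-seq in dorsal skin of 3-month-old mice, in 4 wild-type libraries and 4 libraries from mice with a knockout of Tph1, which encodes the tryptophan hydroxylase of serotonin synthesis outside the brain. The labels give no strain, sex, allele or litter. Nothing in them ties a library to its own animal, so every p-value measures the spread between these libraries.

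The outermost layer of the skin keeps water in by means of stacked lipid sheets between dead, flattened keratinocytes. Their main building block is a ceramide that joins a sphingoid base to a very long fatty acid whose far end is hydroxylated and esterified to linoleate. This acylceramide is made and packed into lamellar granules in the upper living layers, secreted, and, after its linoleate is oxidised, partly fixed to proteins of the cell envelope. Inherited loss of many of these enzymes causes ichthyosis, a scaling skin disease. From textbook knowledge the genes were placed in 3 classes: 12 that are restricted largely to differentiating epidermis (Alox12b, Aloxe3, Alox12e, Abca12, Cers3, Cyp4f39, Pnpla1, Sdr9c7, Lipk, Lipm, Lipn and Acer1), 7 found in several epithelia (Elovl4, Elovl7, Sptlc3, Degs2, Cers4, Sgpp2 and Sult2b1), and 13 active in most cells of the body (Elovl1, Abhd5, Smpd1, Ugcg, Sptlc1, Sptlc2, Degs1, Sgms1, Sgms2, Slc27a4, Aldh3a2, Asah1 and Plpp3).

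Libraries held 20531601 to 24678638 expected counts, which are RSEM's estimates of reads per gene, and 16908 genes were abundant enough to test. Tph1 itself was low in skin: the wild-type libraries held 18, 0, 27 and 11 expected counts and all 4 knockout libraries held 0, so wild-type replicate 2 could not be told from a knockout by this gene. Genes of skeletal muscle, a tissue that lies under dorsal skin, were abundant in every library, with a mean log2(CPM + 1) of 9.02 to 11.58 over 23 genes. CPM is the usual count scaled to library size, here after TMM normalisation. Basal keratinocyte genes (13 genes) lay at 8.65 to 9.21 in wild type and 8.35 to 8.97 in the knockout, so epidermis was present in all libraries. Knockout replicate 3 stood apart from the rest by its hair and sebaceous gland genes. Its level was 6.17 for 14 tested hair matrix genes, against 1.15 to 3.65 in the other 7 libraries, and 5.66 for 14 sebocyte genes, against 3.05 to 4.49. Another 6 of the 20 listed hair genes were too low to test.

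Across the 31 testable genes (Sgpp2, a phosphatase of sphingosine phosphate, was too low), most estimates lay on the knockout-low side but only Sult2b1 passed the test. By edgeR's quasi-likelihood test at a Benjamini-Hochberg adjusted p under 0.05, 1 gene was lower and 0 were higher in the knockout, against 0.532% of all tested genes called lower and 0.118% called higher. At an unadjusted p under 0.05, 12 were lower and none of the 31 higher. Of all tested genes, 9.37% were lower at that level and 17.6% differed in either direction. The log2 fold change was negative for 26 genes and positive for 5, with a median of -0.41, where 7926 of all 16908 tested genes were negative and their median was 0.03. Among the 26, Asah1 and Smpd1 turned positive with upper-quartile scaling, and these and Elovl4 and Slc27a4 with scaling to basal keratinocyte genes. With the level of spinous and granular layer genes as a covariate, 11 of the 26 turned positive. Of the 31 genes, 14 kept their sign in all 22 alternative fits. All 4 knockout libraries lay below all 4 wild-type libraries for 4 genes (Sult2b1, Alox12b, Elovl1 and Sptlc1), against 5.65% of all tested genes, and above them for 0, against 5.39%. In bulk skin, fewer cells of a type and less RNA per cell cannot be told apart.

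The promoters of those 4 non-overlapping genes are shown because they belong to all 3 classes, and the rest of the set is summarised. Each is the stretch of up to 250 bases before a RefSeq start site on GRCm38.p6, 5′ to 3′ on the gene's strand, ending before any annotated exon, with a match to a searched motif in capitals.
Sult2b1, chr7:45759613-45759862, minus strand: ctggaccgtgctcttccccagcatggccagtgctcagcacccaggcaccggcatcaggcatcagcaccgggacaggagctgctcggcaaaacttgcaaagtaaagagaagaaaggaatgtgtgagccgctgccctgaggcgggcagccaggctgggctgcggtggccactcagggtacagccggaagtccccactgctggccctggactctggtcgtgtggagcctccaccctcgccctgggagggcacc
Alox12b, chr11:69156822-69156988, plus strand: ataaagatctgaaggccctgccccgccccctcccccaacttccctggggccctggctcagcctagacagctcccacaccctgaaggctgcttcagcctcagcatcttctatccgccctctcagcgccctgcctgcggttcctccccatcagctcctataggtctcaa
Elovl1, chr4:118429451-118429700, plus strand: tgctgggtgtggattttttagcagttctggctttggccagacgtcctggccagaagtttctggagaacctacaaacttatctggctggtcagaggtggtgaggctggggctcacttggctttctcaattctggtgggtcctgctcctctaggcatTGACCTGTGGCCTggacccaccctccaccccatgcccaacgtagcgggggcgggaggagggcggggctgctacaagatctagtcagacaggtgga
Sptlc1, chr13:53377398-53377611, minus strand: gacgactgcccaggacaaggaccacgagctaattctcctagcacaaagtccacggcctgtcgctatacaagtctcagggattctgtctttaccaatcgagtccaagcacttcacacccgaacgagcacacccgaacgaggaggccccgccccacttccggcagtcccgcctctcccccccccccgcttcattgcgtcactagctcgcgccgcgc
The Sult2b1 and Elovl1 windows lie within the span of the annotated gene, before a start site inside it. Elovl1 has another window, chr4:118427843-118428092, directly before the start of the annotated gene. That window held no match to a searched motif and is not printed. A second Sult2b1 window, chr7:45742479-45742728, begins inside an annotated exon and is not printed. The shares that follow were counted on the whole 250 bases before each start site, exonic bases included. The capitals in Elovl1 are a match to the DR1 element, the direct repeat bound by PPAR and RXR nuclear receptors (searched on both strands, overlapping no other motif match). Of 39 promoters found for 29 of the 32 genes, 1 held it, or 2.56%, against 0.08% of all 32851 RefSeq promoters of the same length. The AP-1 motif TGANTCA was in 12.82% of the 39 against 6.75% of all, the C/EBP motif TTGCNNAA in 2.56% against 9.56%, and the grainyhead-like motif AACCGGTT in 2.56% against 0.12%. By class, the AP-1 motif was in 1 of 10 epidermis-restricted, 1 of 8 epithelial and 3 of 21 ubiquitous promoters. The 21 ubiquitous promoters belong to 12 genes, and all 3 of their matches lie in Sgms1 and Sgms2. These shares and the base composition count promoters, not genes, so a gene with several promoters weighs more. The epithelial match lies in the second Sult2b1 window, and that match and 1 of the 2 in Sgms2 lie past the first exonic base of their window. In base composition, the median promoter of the epidermis-restricted genes had 51.4% G and C and 5 CG pairs, near the 52.4% and 6 of all promoters, whereas the ubiquitous genes had 61.2% and 13 and the epithelial genes 67.2% and 16. A match describes these letters only.

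Sult2b1 encodes the sulfotransferase that makes cholesterol sulfate, a lipid that accumulates in the granular layer and whose removal accompanies shedding of the outermost cells. It was the only barrier lipid gene that passed the test, though other genes of the set had more negative estimates. In replicate order its CPM was 30.0, 28.9, 35.2 and 32.3 in wild type (mean 31.6 ± 2.8, SD, n = 4) and 16.1, 15.5, 22.4 and 16.3 in the knockout (17.6 ± 3.21, SD, n = 4). Every knockout library lay below every wild-type library, with knockout replicate 3 the highest of its group. The log2 fold change was -0.85 ± 0.15 (SE), or 0.556 of wild type, with an edgeR adjusted p of 0.0432. Without knockout replicate 3 the edgeR adjusted p was 0.0165, but leaving out any of the other 7 libraries gave 0.0565 to 0.2, while the log2 fold change stayed between -0.99 and -0.79 over all 8 such fits. The call was also lost with upper-quartile scaling (edgeR adjusted p 0.0573), the gene length offset (0.0539), scaling to basal keratinocyte genes (0.558) and with a covariate for handling (0.597), adipocyte (0.214), muscle (0.139) or spinous and granular (0.0631) level, so that 8 of 22 alternatives kept it. Sult2b1 lies on chr7:45729983-45784669, 0.86 Mb from Tph1 (chr7:46644641-46672537). Of 186 tested genes within 10 Mb of Tph1, 15 passed the test, or 8.06% against 0.651% of all tested genes, and 10 of them were lower, or 5.38%. Whether that neighbourhood bears on the Sult2b1 difference was not tested. Lmtk3 overlaps it on the other strand and the library kit named in the labels does not mark strand, but Lmtk3 averaged 47.5 expected counts against 567.1 for Sult2b1.

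**Figure D1:**
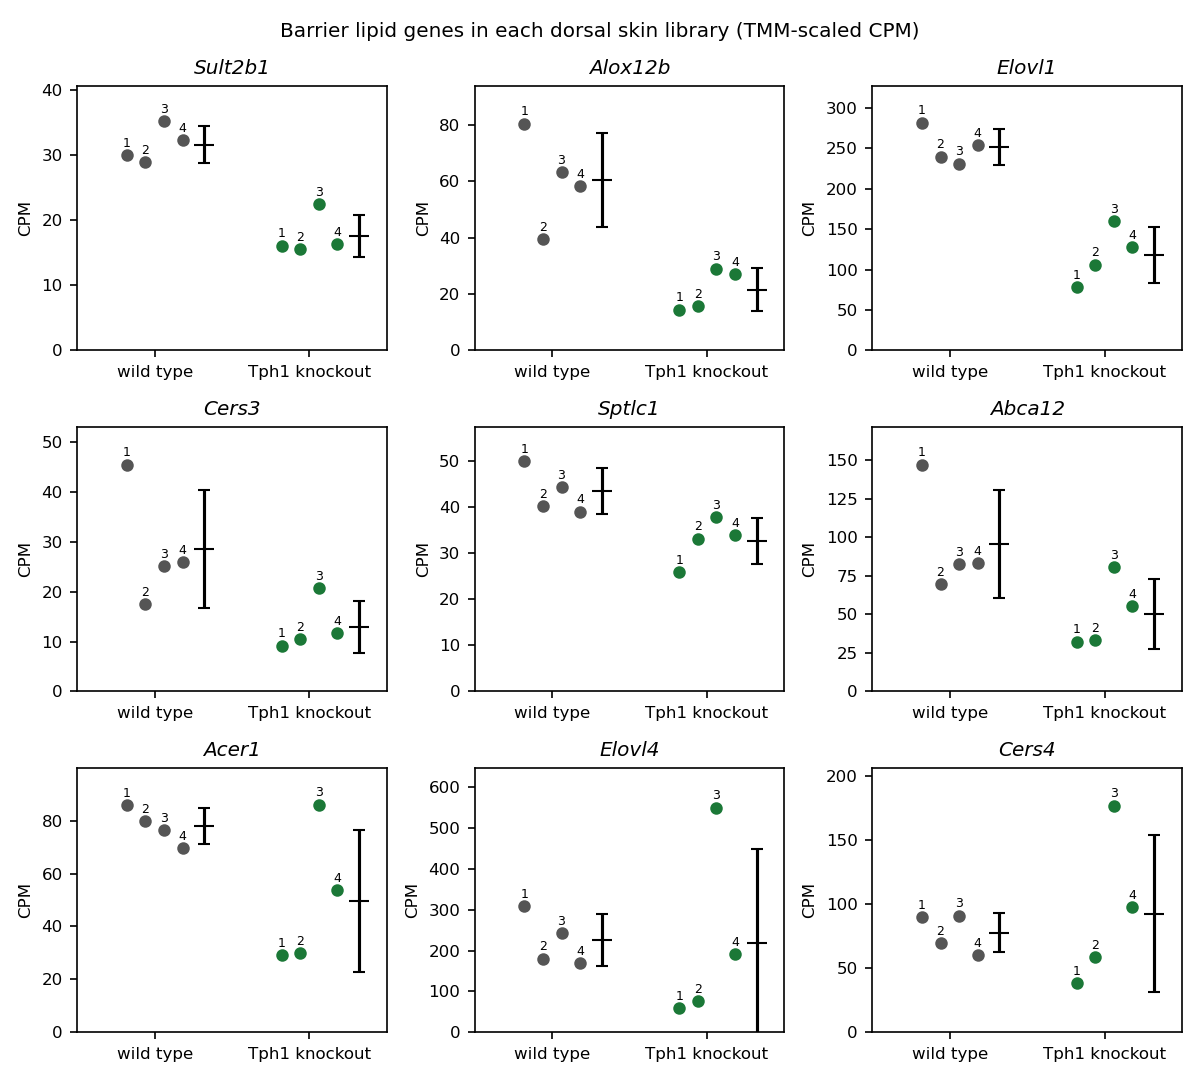
TMM-scaled CPM (y axis from 0) of 9 barrier lipid genes in each dorsal skin library; numbered points are replicates, and the bar beside them is the mean and SD of 4 libraries (for Elovl4 the lower end of the knockout bar, 219 ± 228, is cut at 0). The groups do not overlap for Sult2b1, Alox12b, Elovl1 and Sptlc1, and knockout replicate 3 is the highest knockout library in all 9 panels.

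The lipoxygenase route oxidises the linoleate of acylceramide so that its ceramide can be attached to the cell envelope. Its 4 genes were all negative and none of the 4 passed, with 3 at an unadjusted p under 0.05. Alox12b, the lipoxygenase of the first oxidation step, had CPM values of 80.5, 39.6, 63.4 and 58.4 in wild type and 14.5, 15.7, 29.0 and 27.1 in the knockout. The groups did not overlap, and the gap between the lowest wild-type value and the highest knockout value was 39.6 against 29.0. Its log2 fold change, -1.49 ± 0.28 (SE), was the most negative of the 31 genes with all 8 libraries, though not without knockout replicate 3, where Lipn was at -2.09, Sdr9c7 at -1.87 and Alox12b at -1.66. Its edgeR adjusted p was 0.0538 and became 0.0443 without wild-type replicate 2 and 0.0451 without knockout replicate 3. Aloxe3, the lipoxygenase that acts on the product of Alox12b, had 70.7, 45.0, 84.3 and 82.8 in wild type and 38.7, 51.9, 53.8 and 55.3 in the knockout. Only wild-type replicate 2 kept its groups from separating, and its log2 fold change was -0.50 ± 0.20 (SE) with an edgeR adjusted p of 0.246. Sdr9c7, a dehydrogenase of the following step, had a log2 fold change of -1.15 ± 0.49 (SE), and its 32.5 CPM in knockout replicate 3 lay within the wild-type range of 22.5 to 49.0 while the other 3 knockout libraries lay at 5.88 to 12.8. Without knockout replicate 3 the Sdr9c7 value was -1.87, and over all fits that left out 1 library it ran from -1.87 to -0.88. Alox12e, an epidermal lipoxygenase with no settled place in this route, was the most abundant of the 12 epidermis-restricted genes in TPM, a length-scaled unit, and had the smallest estimated difference of them, at -0.18 ± 0.22 (SE).

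Sphingoid base and ceramide synthesis held 7 genes, of which 5 were negative and none of the 7 passed. Cers3, the ceramide synthase that accepts the ultra-long fatty acids of the barrier, had CPM values of 45.5, 17.5, 25.2 and 26.0 in wild type and 9.16, 10.5, 20.7 and 11.7 in the knockout. All but knockout replicate 3 lay below the lowest wild-type library, and the log2 fold change was -1.13 ± 0.33 (SE) with an edgeR adjusted p of 0.145. Serine palmitoyltransferase starts the pathway in every cell. Sptlc2, its catalytic subunit, had 53.2, 39.2, 41.5 and 29.9 in wild type and 21.9, 24.6, 32.9 and 19.4 in the knockout, with a log2 fold change of -0.73 ± 0.21 (SE) and an edgeR adjusted p of 0.138. Its partner subunit Sptlc1 separated the groups with a smaller difference: 50.1, 40.3, 44.4 and 39.1 against 25.9, 33.2, 37.8 and 33.9, a log2 fold change of -0.41 ± 0.14 (SE) and an edgeR adjusted p of 0.199. Sptlc3, the alternative catalytic subunit of some epithelia, had -0.70 ± 0.27 (SE). Without knockout replicate 3 the Sptlc3 value was -1.04 and its edgeR adjusted p 0.0285. Degs1, the desaturase that turns dihydroceramide into ceramide, had 70.4, 66.6, 75.4 and 51.7 in wild type and 45.1, 54.8, 65.7 and 58.7 in the knockout, overlapping at -0.24 ± 0.15 (SE). Degs2, the related enzyme that also makes phytoceramide, was near the lower end of detection at 0.324 to 1.66 CPM, and it lies across Evl, which had 195.2 mean expected counts against 13.9. The remaining gene, Cers4, a ceramide synthase for shorter acyl chains, had 0.26 ± 0.40 (SE) with knockout replicate 3 at 177 CPM and the other 7 libraries at 38.4 to 97.5.

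Related enzymes of fatty acid elongation and activation had unlike values, with 3 of the 4 genes negative and none of the 4 passing (Elovl4 and Slc27a4 turned positive with scaling to basal keratinocyte genes). Elovl1, the elongase of very long saturated fatty acids in most tissues, had CPM values of 282, 240, 231 and 254 in wild type and 77.9, 106, 160 and 128 in the knockout. The groups were well apart, with a log2 fold change of -1.09 ± 0.21 (SE), or 0.469 of wild type, and an edgeR adjusted p of 0.0547, which became 0.0256 without knockout replicate 3. Cdc20 overlaps Elovl1 on the other strand, with 226.4 mean expected counts against 4293.6. Elovl4, the elongase of the ultra-long chains, had 308, 180, 243 and 170 in wild type and 59.6, 76.2, 549 and 191 in the knockout. Knockout replicates 1 and 2 were the lowest of the 8 libraries and replicate 3 the highest, so the estimate of -0.04 ± 0.61 (SE) has a wide error. Elovl7, an elongase of shorter saturated chains, had 31.3, 20.3, 30.6 and 25.3 in wild type and 22.3, 19.9, 65.5 and 25.9 in the knockout, at 0.31 ± 0.36 (SE), with knockout replicate 3 alone outside the wild-type spread on the high side. Slc27a4, a fatty acid transporter and acyl-CoA synthetase, had -0.17 ± 0.33 (SE) with 136 CPM in knockout replicate 3, the highest of the 8 libraries, and 42.9 in knockout replicate 1, the lowest.

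The 3 genes that hydroxylate and esterify the fatty acid were all negative and none of the 3 passed. Abhd5, the cofactor that presents triglyceride to Pnpla1 and to other lipases, had CPM values of 76.1, 64.3, 63.7 and 58.9 in wild type and 49.3, 51.6, 58.9 and 55.1 in the knockout. The groups met at 58.9, and the log2 fold change was -0.29 ± 0.12 (SE) with an edgeR adjusted p of 0.239. Pnpla1, the transacylase that attaches linoleate, had 27.3, 15.1, 14.5 and 16.4 against 7.31, 7.25, 20.9 and 10.6. Here wild-type replicate 1 and knockout replicate 3 stood above the others of their groups, and the log2 fold change was -0.67 ± 0.36 (SE). Cyp4f39, the hydroxylase of the ultra-long fatty acid, lay at 28.6 to 49.9 in wild type and 14.6 to 44.7 in the knockout, with -0.56 ± 0.35 (SE).

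Glucosylation, conversion to sphingomyelin and export prepare ceramides for the lamellar granule. Its 5 genes were all negative (Smpd1 turned positive, at 0.01, with upper-quartile scaling) and none of the 5 passed. Ugcg, the glucosylceramide synthase, had CPM values of 67.1, 24.4, 42.7 and 49.6 in wild type and 24.0, 27.8, 33.5 and 24.3 in the knockout, with -0.75 ± 0.27 (SE) and an edgeR adjusted p of 0.206. Abca12, the transporter that loads the granule with lipid, had 147, 69.7, 82.3 and 83.3 in wild type and 32.3, 33.0, 80.4 and 55.3 in the knockout. Wild-type replicate 1 was highest and knockout replicate 3 lay within the wild-type range, giving -0.93 ± 0.33 (SE) and an edgeR adjusted p of 0.206. The sphingomyelin synthases Sgms1 and Sgms2 had -0.35 ± 0.21 (SE) and -0.36 ± 0.37 (SE), and Smpd1, the acid sphingomyelinase that returns ceramide from sphingomyelin, had -0.02 ± 0.23 (SE).

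Breakdown enzymes did not share a direction: 2 of the 4 tested were negative (of which Asah1 turned positive, at 0.01, with upper-quartile scaling) and none of the 4 passed. Acer1, the alkaline ceramidase of differentiated epidermis, had CPM values of 85.7, 79.9, 76.5 and 69.5 in wild type and 29.1, 29.9, 86.0 and 53.8 in the knockout. Its wild-type libraries were close together and 3 knockout libraries lay below them, but knockout replicate 3 was the highest of all 8, and the log2 fold change was -0.65 ± 0.32 (SE) with an edgeR adjusted p of 0.318. Aldh3a2, the fatty aldehyde dehydrogenase of sphingoid base breakdown, had 52.7, 37.4, 36.0 and 34.2 against 33.4, 46.7, 60.5 and 45.9, at 0.22 ± 0.20 (SE). The acid ceramidase Asah1 and the lipid phosphatase Plpp3 had -0.01 ± 0.18 (SE) and 0.18 ± 0.32 (SE), and both had wild-type replicate 1 well above the other wild-type libraries.

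The acid lipases Lipk, Lipm and Lipn, which lie side by side on chromosome 19 and are switched on late in keratinocyte differentiation, were all negative and none of the 3 passed. Lipm had CPM values of 78.9, 42.7, 54.6 and 65.9 in wild type and 36.4, 49.9, 54.3 and 44.5 in the knockout, at -0.39 ± 0.20 (SE). Ankrd22 overlaps Lipm on the other strand, with 447.6 mean expected counts against 1241.8. Lipn had 17.4, 4.80, 3.77 and 6.62 against 0.787, 0.958, 7.41 and 4.00, at -1.31 ± 0.73 (SE). That value was -0.62 without wild-type replicate 1 and -2.09 without knockout replicate 3. Lipk followed the same order of libraries in the knockout, from 0.787 in replicate 1 to 5.40 in replicate 3, at -0.94 ± 0.56 (SE), which was -0.64 without knockout replicate 1 and -1.54 without knockout replicate 3. For these lipases, too, wild-type replicate 1 was the highest library.

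**Figure D2:**
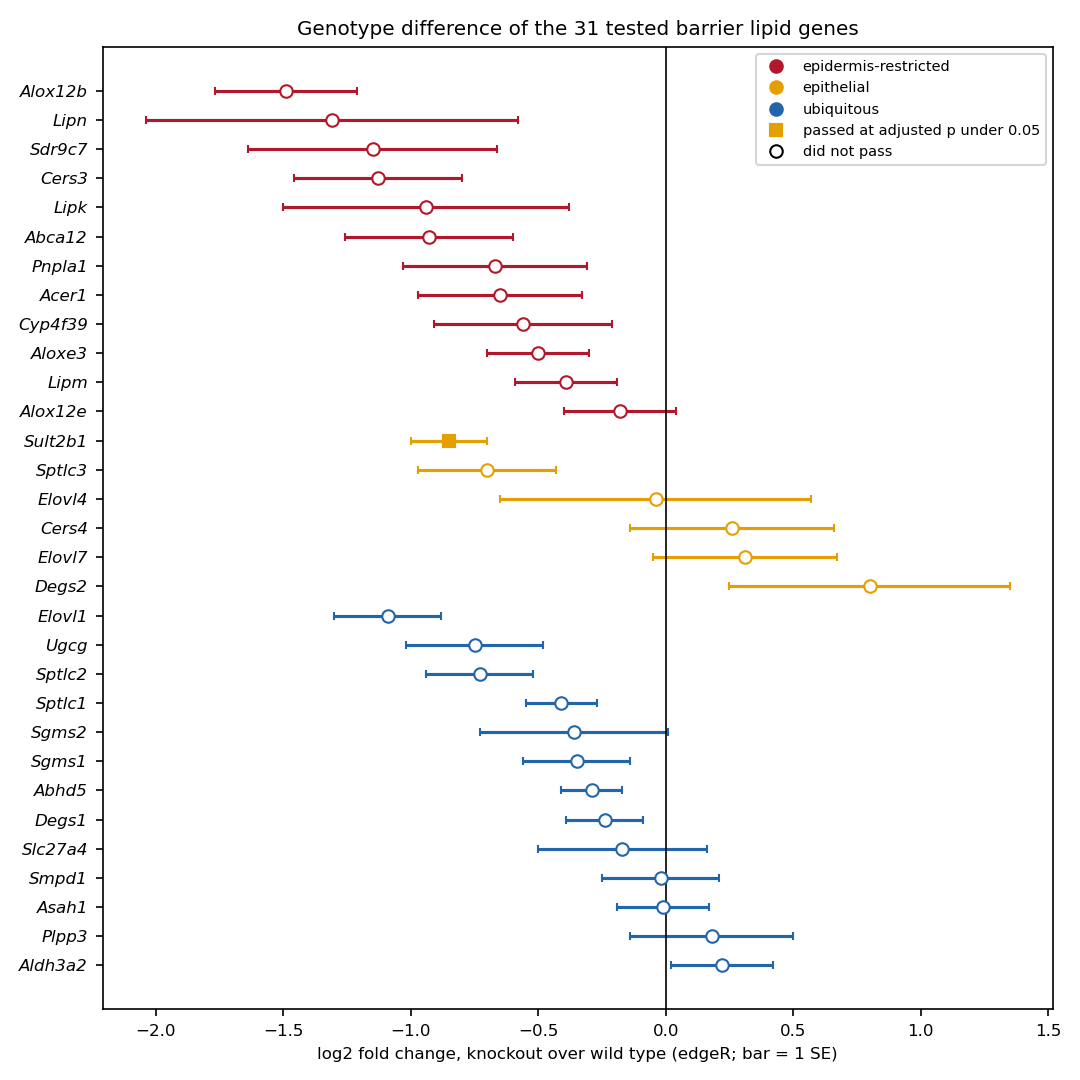
Log2 fold change, knockout over wild type, of the 31 tested barrier lipid genes (x axis; bars are 1 SE from edgeR), coloured by class and ordered within each class. All 12 epidermis-restricted genes lie left of 0, from -1.49 to -0.18; only Sult2b1, drawn as a filled square, passed at an adjusted p under 0.05.

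Epidermis-restricted genes had more negative estimates than the ubiquitous ones, and the difference between classes lay partly within the spread of the libraries. For the 12 restricted genes the median log2 fold change was -0.80, with all 12 negative, 0 passing and 5 at an unadjusted p under 0.05. The 13 ubiquitous genes had a median of -0.29, with 11 negative, 0 passing and also 5 at an unadjusted p under 0.05. The 6 tested epithelial genes had a median of 0.11, with 3 negative and Sult2b1 passing. The mean log2(CPM + 1) of the restricted class was 5.71, 4.82, 5.06 and 5.24 in wild type and 3.82, 3.97, 5.15 and 4.55 in the knockout. For the ubiquitous class it was 6.22, 5.72, 5.72 and 5.61 against 5.17, 5.42, 5.92 and 5.54. For the epithelial class it was 5.08, 4.71, 4.97 and 4.75 against 4.03, 4.13, 5.58 and 4.65. The difference of means was -0.28 for the epithelial class, on the other side of 0 from its median of 0.11, and -0.30 for the ubiquitous class. The restricted level minus the ubiquitous level of the same library was -0.51, -0.90, -0.66 and -0.37 in wild type and -1.35, -1.45, -0.77 and -0.99 in the knockout. Knockout replicates 1, 2 and 4 lay below all wild-type libraries on this measure and replicate 3 within their range. No test was made of the difference between classes, since the libraries and the choice of genes are shared.

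The restricted genes kept step with other genes of the upper epidermis. Their level minus that of 24 spinous and granular layer genes (structural proteins and their regulators) was -2.29 to -2.09 in wild type, mean -2.19 ± 0.08 (SD, n = 4), and -2.36 to -2.04 in the knockout, mean -2.17 ± 0.14 (SD, n = 4). The spinous and granular genes themselves were at 7.11 to 7.92 in wild type and 5.86 to 7.51 in the knockout, a difference of means of -0.85 with an exact two-sided permutation p of 0.114 (adjusted over 10 marker lists 0.429). Of those 24 genes, 2 were called lower, against 0.532% of all tested genes. With the level of that list as a covariate, the median log2 fold change was -0.05 for the restricted class and 0.07 for the ubiquitous class, and no barrier lipid gene was called lower while 1, Plpp3, was called higher, against 0.556% of all tested genes. Against the basal keratinocyte genes the restricted level was -4.15 to -3.05 in wild type and -5.08 to -3.20 in the knockout.

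Other marker lists also moved between libraries. Handling genes (25 early-response and heat-shock genes) were at 6.95 to 8.37 in wild type and 6.27 to 6.98 in the knockout. Their exact two-sided permutation p was 0.0571 (adjusted 0.429), and 1 of the 25 was called lower, against 0.532% of all tested genes. Handling is only the name given to this list, and handling of the tissue itself was not measured. Leukocyte genes (14) were at 4.56 to 5.03 against 3.69 to 5.19, adipocyte genes (15) at 7.78 to 8.02 against 6.76 to 8.02, fibroblast genes (12) at 5.73 to 7.22 against 5.48 to 6.63, and endothelial genes (10) at 4.16 to 4.93 against 4.32 to 4.99. Skeletal muscle genes were at 9.02 to 11.58 against 11.11 to 11.89. The share of counts from mitochondrial genes was 4.19% to 8.4% in wild type and 7.5% to 10.74% in the knockout. With the handling level as a covariate the restricted median was -0.47, with the muscle level -0.63 and with the adipocyte level -0.70. No barrier lipid gene was called in these 3 fits, which called only 3, 25 and 8 of all 16908 tested genes. The part of these levels in the barrier lipid values beyond these fits was not tested.

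**Figure D3:**
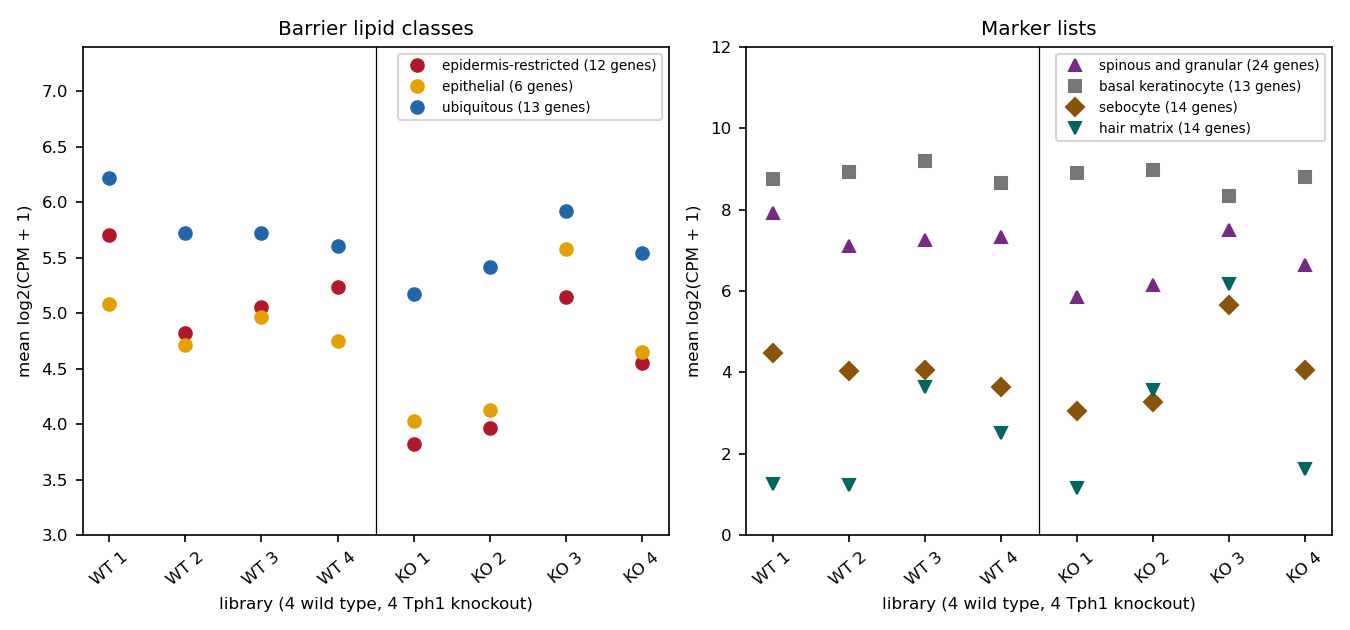
Mean log2(CPM + 1) in each library (x axis, 4 wild type and 4 Tph1 knockout) of the 3 barrier lipid classes (left) and of 4 marker lists (right). Knockout replicates 1 and 2 are lowest for all 3 classes, and knockout replicate 3 reaches 6.17 for hair matrix and 5.66 for sebocyte genes.

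The libraries of a genotype were not alike for these genes. Knockout replicate 3 was the highest knockout library for 29 of the 31 genes, or 93.5%, against 29.2% of all tested genes, and the exceptions were Aloxe3 and Sgms2, where replicate 4 was highest. It was the highest of all 8 libraries for 11 genes, or 35.5% against 14.7%, among them all 4 tested breakdown genes and 4 of the 6 epithelial genes (Elovl4, Elovl7, Cers4 and Degs2). For Acer1 (86.0 against 85.7 CPM) and Asah1 (47.8 against 47.7) it was barely above wild-type replicate 1. Sebaceous glands and hair follicles also use several enzymes of the set, Elovl4 and Cers4 among them. The sebocyte and hair levels of knockout replicate 3 are given above. Beyond the fits with those levels as covariates, their part in its high values was not tested. Knockout replicates 1 and 2 were both below all wild-type libraries for 20 genes, or 64.5% against 11.8% of all tested genes. Wild-type replicate 1 was the highest of all 8 for 17 genes, or 54.8% against 16.3%. Part of this was shared by the 38 tested genes of sphingolipid metabolism outside the set, described below. Among those, knockout replicate 3 was the highest knockout library for 68.4% and the highest of all 8 for 34.2%. Knockout replicates 1 and 2 were both below all wild-type libraries for 42.1% of them, and wild-type replicate 1 was the highest of all 8 for 31.6%.

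Leaving out libraries moved the class values. Without knockout replicate 3 the restricted median was -1.19, the epithelial median -0.62 and the ubiquitous median -0.38. In that fit 4 barrier lipid genes were called lower (Sult2b1, Elovl1, Alox12b and Sptlc3), against 0.856% of all tested genes. Without wild-type replicate 1 the restricted median was -0.61 and the ubiquitous median -0.09, and without knockout replicate 1 the restricted median was -0.57. Among genes that did not pass, Acer1 was at -1.05, Cyp4f39 at -1.03, Pnpla1 at -1.13 and Degs2 at 0.11 without knockout replicate 3, and Cyp4f39 was at -0.36, Pnpla1 at -0.42, Lipm at -0.23 and Sgms1 at -0.09 without wild-type replicate 1. Only Alox12b was called without wild-type replicate 2, where 88 of 17292 tested genes were called. None of the 31 genes was called when any of the other 6 libraries was left out. Those 6 fits called only 8 to 32 of 17187 to 17305 tested genes. DESeq2 called 5 of the genes lower (Sult2b1, Elovl1, Sptlc2, Cers3 and Alox12b), against 3.83% of all tested genes. Without the filter on low counts 2 were called lower, against 0.423%, and with the basal keratinocyte level as a covariate 4, against 0.698%. In fits chosen after seeing the data, 9 were called lower with the sebocyte level as a covariate, against 1.87%, 2 with the hair matrix level, against 0.367%, and 6 without both wild-type replicate 2 and knockout replicate 3, against 0.878%.

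**Figure D4:**
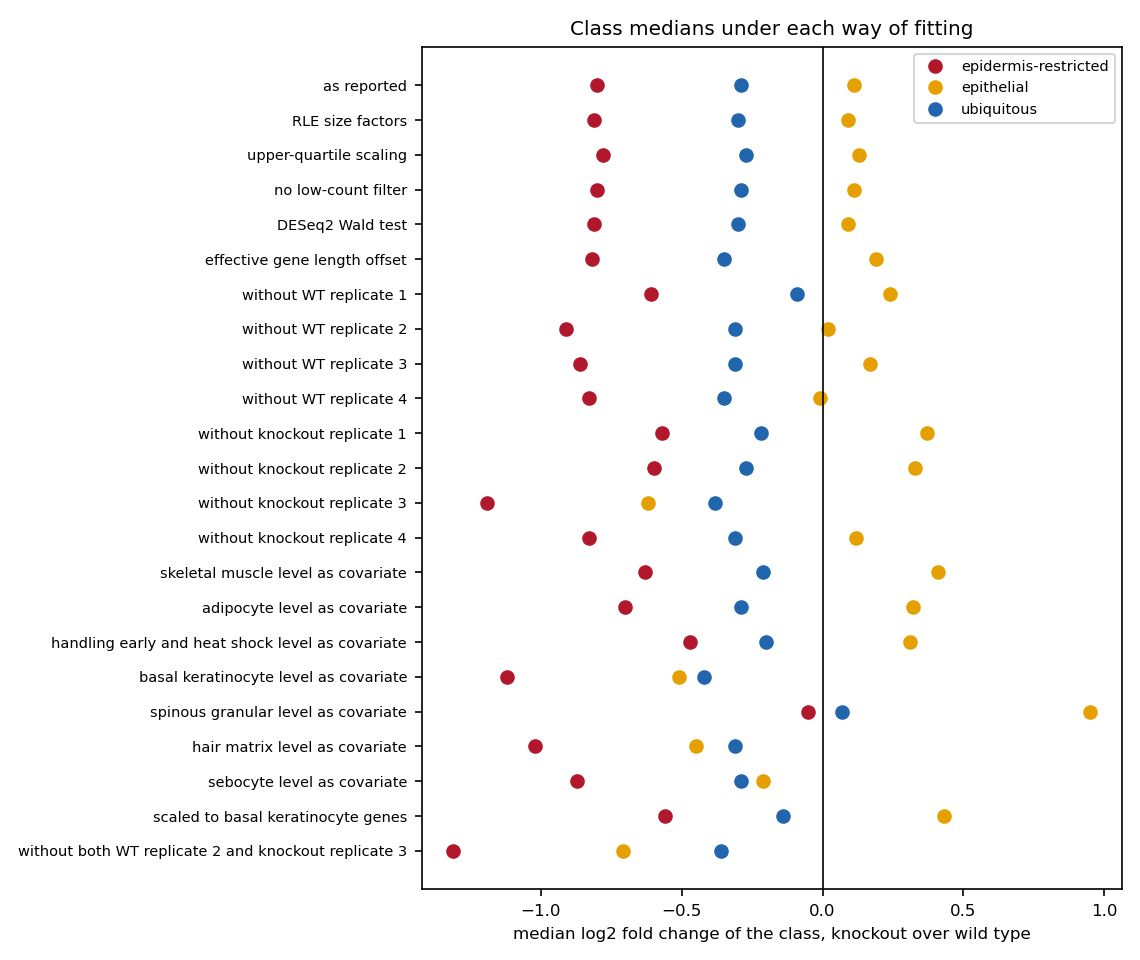
Median log2 fold change, knockout over wild type, of the 12 restricted, 6 epithelial and 13 ubiquitous barrier lipid genes (x axis) under each way of fitting (y axis). The restricted median is below 0 in every fit shown and moves from -0.80 to -0.05 with the spinous and granular level as a covariate, and the epithelial median changes side in several fits.

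In TPM, RSEM's unit scaled to transcript length and library size that allows genes to be compared, the barrier lipid genes spanned from 298 for Elovl1 to 0.105 for Sgpp2 in wild type. Elovl1 had 298 ± 58.4 TPM (SD, n = 4) in wild type and 140 ± 67.3 (SD, n = 4) in the knockout. Its mean was the highest of the 32 in both, but in the knockout Elovl4, at 108 ± 128 (SD, n = 4), lay within that spread. Elovl4 followed with 104 ± 39.5 (SD, n = 4) in wild type, then Alox12e with 73.7 ± 13.7 (SD, n = 4). Degs1 (45.7), Acer1 (44.5), Abhd5 (43.2), Sult2b1 (39.5), Plpp3 (36.7), Sptlc2 (36.4) and Alox12b (34.7) came next, and neighbours in this run did not differ beyond their SDs, which were 4.34 to 18.2. Class did not set abundance, since restricted genes ran from 73.7 for Alox12e to 3.45 for Lipk and ubiquitous genes from 298 for Elovl1 to 5.21 for Sgms2.

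**Figure D5:**
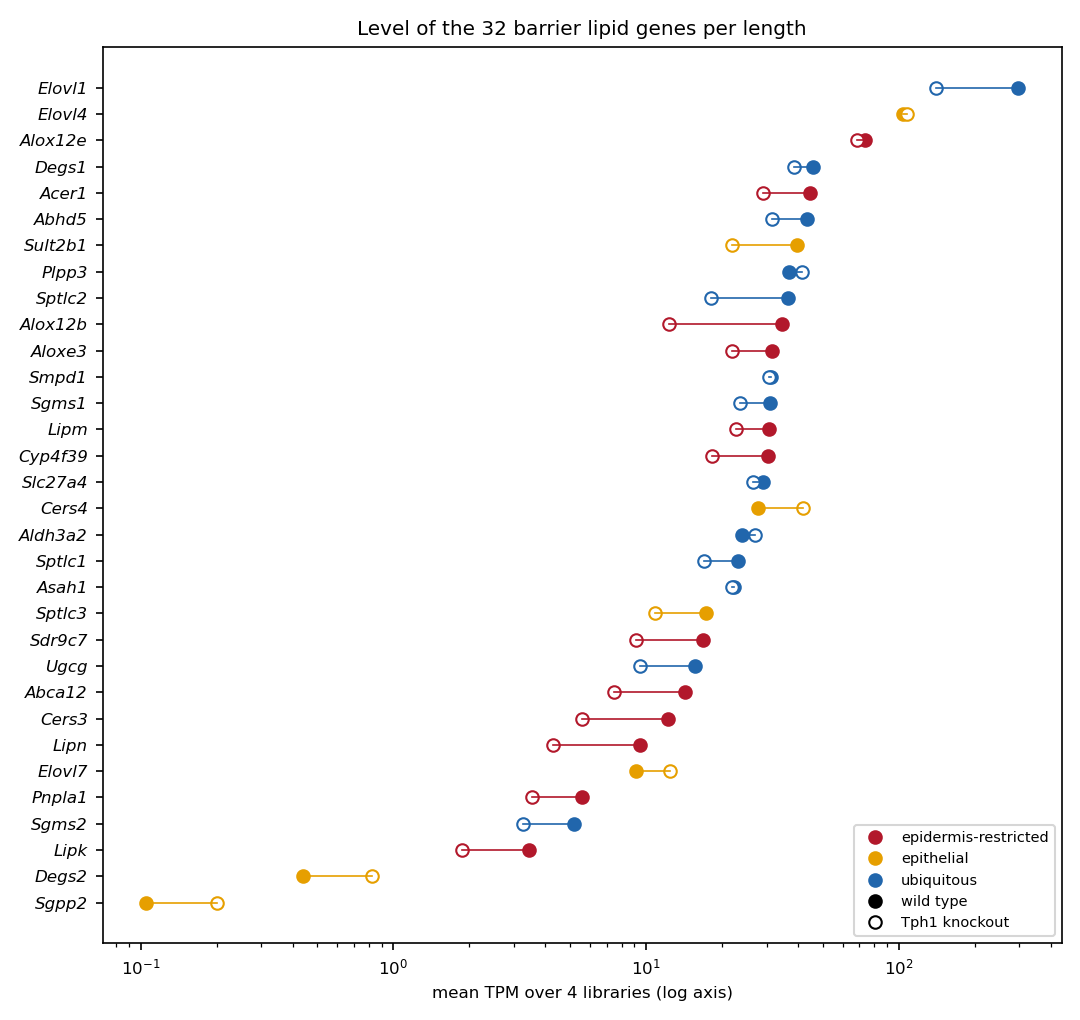
Mean TPM over 4 libraries (x axis, log scale) of each of the 32 barrier lipid genes in wild type (filled) and knockout (open), ordered by the wild-type mean and coloured by class; no error is drawn. Elovl1 is highest in both groups, at 298 and 140, and Degs2 and Sgpp2 lie below 1.

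The mean transcript length that RSEM assigns to a gene changes when its isoforms are used in other proportions. It overlapped between genotypes for 31 of the 32 genes. Among these are Alox12b, Acer1, Plpp3 and Sgpp2, which have only 1 transcript and so a fixed length. The exception was Degs1, at 2026 to 2047 bases in wild type (mean 2039) and 1993 to 2025 in the knockout (mean 2012). The share of all genes without overlap was not computed, so the Degs1 lengths are not read as a difference of genotype. Cers4 varied most, from 2738 bases in knockout replicate 3 to 5189 in knockout replicate 2, with shorter values in the same libraries that were not all of one genotype (2977 in wild-type replicate 1 and 3127 in knockout replicate 4). Cyp4f39 ranged from 1336 to 2187 bases and Sptlc2 from 1445 to 2162.

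Other genes of sphingolipid metabolism outside the 32 lay on both sides of 0. Of 41 listed, 40 were matched and 38 tested, with 18 negative, 20 positive, a median log2 fold change of 0.01, 1 called lower (against 0.532% of all tested genes) and 0 called higher. The called gene was Sphk1, the kinase that makes sphingosine phosphate. Its CPM was 84.8, 54.4, 75.4 and 71.4 in wild type and 27.8, 34.4, 41.0 and 33.6 in the knockout, without overlap, and its log2 fold change was -1.06 ± 0.17 (SE) with an edgeR adjusted p of 0.0324. It passed without wild-type replicate 2 or knockout replicate 3 but not when any of the other 6 libraries was left out, where the edgeR adjusted p was 0.0799 to 0.152. All knockout libraries lay below all wild-type libraries for 6 of the 38 genes, against 5.65% of all tested genes. They lay above for 0 of the 38, against 5.39%. At an unadjusted edgeR p under 0.05, 6 of the 38 were lower and no gene was higher. Of all tested genes, 9.37% were lower at that level and 17.6% differed in either direction. Besides Sphk1, 4 of the genes without overlap are given here, none of which passed. They were Nipal4, an ichthyosis gene of barrier lipid formation (-1.01 ± 0.25, SE), the second sphingosine kinase Sphk2 (-0.42 ± 0.12, SE), Ormdl2, a regulator of serine palmitoyltransferase (-0.64 ± 0.18, SE), and the ceramide kinase Cerk (-0.46 ± 0.14, SE). The edgeR adjusted p of these 4 was 0.103 to 0.157.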

How the data were processed

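Total RNA of dorsal skin was extracted with an RNeasy column kit and sequenced from NEBNext Ultra libraries, per the labels. Tools and build named in the submitters' processing notes, without their roles, are GRCm38, RSEM 1.31, STAR 2.7.6a, DESeq and DESeq2, and the labels name Ensembl release 101. The authors deposited 1 RSEM table per library with expected counts (estimated, not normalized), TPM (used here for levels between genes) and FPKM (not used in a test), and isoform tables of the same units. Their matrix of normalized signal for 17382 genes, also deposited, was used for gene symbols only. RSEM divides reads that match several genes by probability. A row for 1 construct was left out.

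Expected counts were rounded, TMM-scaled after filterByExpr (at least 10 counts in enough libraries and 15 in total) and tested for genotype by robust quasi-likelihood in edgeR 4.0.16 (R 4.3.3), adjusting p by Benjamini-Hochberg over all 16908 tested genes. An SE is |log2 fold change| over the root of the F statistic. DESeq2 1.42.0 was an alternative. Scripts were tested on simulated data. Marker lists were compared by an exact permutation test over 70 assignments of libraries, whose smallest p is 0.0286. Coordinates are from GENCODE M21 (GRCm38) and promoters from RefSeq (GRCm38.p6); 209 of 211 listed symbols matched. Per-library values are given for called genes, up to 2 genes of smallest p in each role and the 3 ubiquitous genes of highest TPM, and from the other sphingolipid genes for the called one, with fold changes for those next by p, of which 1 is not reported here. Elovl4 and Sptlc1, and the promoters printed, were added after their values were seen. The genes, classes, lists and tests were chosen with earlier results of these data known. Replicate numbers follow record order, and the depth of 20531601 to 24678638 counts limits the precision of the rarest genes.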

Additional observations from a re-analysis of the deposited data

Results flagged for a closer look

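In 64 groups of 4 libraries (32 genes, both genotypes), 1 library stood far from the other 3 in 6 cases, by a gap beyond Dixon's critical share of the group's range. Chance gives about 1 in 20 for independent groups. These 64 share the same libraries, so no excess over that rate is read from them. Knockout replicate 3 was the outlying library in 3 of them: Elovl7 at 65.5 CPM, Sgpp2 at 1.57 CPM and Sult2b1 at 22.4 CPM, each the highest knockout value. The Sult2b1 value was still below every wild-type library. Wild-type replicate 1 was the outlying library in the other 3: Pnpla1 at 27.3 CPM, Asah1 at 47.7 CPM and Plpp3 at 132 CPM. Sgpp2 rests on 1 to 36.27 expected counts per library, beside the 911 mean expected counts of Farsb, which overlaps it on the other strand.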

How the results depend on the processing

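No paired analysis was possible because the replicate numbers follow record order and the labels link no libraries across genotypes. Depth limits Degs2 and Sgpp2, at a mean of 13.9 and 9.8 expected counts, most. Of 31 tested genes, 14 kept their sign in all 22 alternatives and 23 in every fit that left out 1 library. The cause of the changes below was not tested, except that fewer libraries or an added term leave fewer degrees of freedom. The covariates for hair matrix and sebocyte level and the fit without both wild-type replicate 2 and knockout replicate 3 were chosen after seeing the data.

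The count of all genes called was 110. It was 994 with DESeq2, 298 with the spinous and granular level as a covariate, 369 with sebocyte, 25 with muscle, 8 with adipocyte, 3 with handling, 14 after scaling to basal keratinocyte genes, 167 without both libraries and 8 to 170 leaving out 1 library each. That scaling put the median of all genes at 0.16. Barrier lipid genes called lower, 1 as reported, were 5 with DESeq2, 2 without the count filter, 4 with the basal keratinocyte level, 2 with hair matrix, 9 with sebocyte and 6 without both libraries. They were 0 with upper-quartile scaling, the length offset, basal keratinocyte scaling, and the muscle, adipocyte, handling and spinous covariates, and 0 to 4 leaving out 1 library each. With the spinous covariate 1 was called higher, Plpp3. Sult2b1 kept its sign in all 22 and its call in 8, with an adjusted p from 8.87e-05 (DESeq2) to 0.597. Other sphingolipid genes called lower, 1 as reported, were 5 with DESeq2, 3 with sebocyte, 2 without both libraries, 0 with muscle, adipocyte, handling, spinous and basal scaling, and 0 to 2 leaving out 1 library each, and 3 were called higher with the spinous covariate.

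The restricted median, -0.80, was -0.05 with the spinous covariate and -1.31 without both libraries, and -1.19 to -0.57 leaving out 1 library each. The epithelial median, 0.11, was -0.51 with basal keratinocyte, 0.95 with spinous, -0.45 with hair matrix and -0.21 with sebocyte level, -0.71 without both libraries, and -0.62 to 0.37 leaving out 1 library each. The ubiquitous median, -0.29, was 0.07 with the spinous covariate and -0.38 to -0.09 leaving out 1 library each.

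Genes changed sign as follows. With the spinous covariate, Alox12e was at 0.21, Cyp4f39 at 0.17, Lipk at 0.14, Lipn at 0.26, Pnpla1 at 0.10, Asah1 at 0.37, Elovl4 at 0.94, Sgms1 at 0.07, Sgms2 at 0.14, Slc27a4 at 0.45 and Smpd1 at 0.39. With the handling covariate, Aloxe3 was at 0.03, Lipm at 0.15, Ugcg at 0.20, Sgms1 at 0.19, Asah1 at 0.25 and Elovl4 at 0.21. With the muscle covariate, Asah1 was at 0.06 and Elovl4 at 0.29, and with adipocyte Asah1 was at 0.07, Elovl4 at 0.22 and Smpd1 at 0.01. Upper-quartile scaling gave 0.01 for Asah1 and Smpd1, and basal keratinocyte scaling 0.15 for Asah1, 0.32 for Elovl4, 0.09 for Slc27a4 and 0.17 for Smpd1. The basal keratinocyte covariate gave -0.11 for Cers4, -0.07 for Elovl7 and -0.07 for Plpp3, hair matrix -0.12, -0.06 and -0.04, and the fit without both libraries -0.33, -0.37 and -0.25. In that last fit Elovl4 was at -1.16 and Slc27a4 at -0.63, the sign they had as reported. Leaving out 1 library each gave -0.16 to 0.13 for Asah1, -0.26 to 0.51 for Cers4, -1.05 to 0.27 for Elovl4, -0.24 to 0.50 for Elovl7, -0.15 to 0.50 for Plpp3, -0.60 to 0.04 for Sgms2, -0.61 to 0.02 for Slc27a4 and -0.26 to 0.11 for Smpd1. For the marker lists it gave differences of -0.21 to 0.01 for basal keratinocyte, -0.14 to 0.11 for endothelial, -0.05 to 1.62 for hair matrix and -0.60 to 0.27 for sebocyte genes.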
